A study of Mus musculus with 2 samples.

Results

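The claudins described here are 10 mouse genes, Cldn1, Cldn2, Cldn3, Cldn4, Cldn5, Cldn7, Cldn8, Cldn12, Cldn15 and Cldn23, taken by symbol from a table of 35529 genes. RNA was measured in 2 libraries from C57BL/6 wild-type mice. The first was a pool from normal colon of mice that received no treatment. The second was a pool from colon adenomas of mice treated with azoxymethane (AOM), a carcinogen that alkylates DNA, and dextran sodium sulfate (DSS), which damages the colon lining. Each pool combined RNA of 6 individuals and was sequenced once, so a group is 1 library, called normal colon or adenoma below, and no difference below has a replicate check. The sources used here give no age, sex, dose or time of sampling. Levels are RPKM, reads scaled to gene length and to library size, from about 29548883 reads in normal colon and 33174626 in adenoma. Intervals in parentheses are 95% intervals that cover counting error only (exact Poisson for a level, Clopper-Pearson for a ratio) and rest on approximate transcript lengths.

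Claudins are small membrane proteins that polymerise into the strands of the tight junction, the seal between neighbouring epithelial or endothelial cells. Their extracellular loops set which ions pass between cells, so that some claudins act as pores and others as barriers, and the mixture a tissue expresses sets how leaky its epithelium is. Most claudins bind the scaffold proteins ZO-1, ZO-2 and ZO-3 through their intracellular tail. In the intestine, Cldn2 and Cldn15 form channels for sodium and other small cations, Cldn3, Cldn4 and Cldn8 are counted among the barrier claudins, and Cldn7 lies along the lateral membrane as well as at the junction.

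In the adenoma pool the barrier claudin Cldn4 was 17.0-fold higher (15.3 to 18.9), while the channel claudins Cldn2 and Cldn15 were 3.42-fold (3.25 to 3.61) and 2.87-fold lower (2.68 to 3.07). The abundant claudins Cldn7 and Cldn3 stayed close to their levels in normal colon, at 1.03-fold (1.01 to 1.05) and 1.19-fold lower (1.16 to 1.22), although both were further below them after an adjustment for transcript length, at log2 values of -0.65 and -0.91. Cldn8 and Cldn12 were about 2-fold lower, and Cldn5 about 2-fold higher. After the length adjustment their log2 values were -1.11, -0.82 and 0.41. These are bulk tissue pools, in which fewer cells of a type and less RNA per cell cannot be told apart. Summed markers of colon epithelium, the tissue that holds most of these claudins, were also lower in adenoma, at 6282 RPKM beside 9731. The keratins Krt8 and Krt19 held most of that sum, and Krt18 and Tspan8 of the same list were higher by less than 2-fold.

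The start regions of 4 members are shown because they belong to the 3 members with the log2 values largest in size and to Cldn3, the chromosomal neighbour of Cldn4. In the GENCODE M21 annotation of GRCm38, Cldn4 occupies positions 134945119 to 134946934 of chromosome 5 on the minus strand, and Cldn3 positions 134986214 to 134987472 on the plus strand. Both genes have a single exon, they point away from each other, and 39279 bases lie between them. The 3′ end of Cldn3 overlaps the antisense gene Wbscr25, and since the use of strand is not given in the sources used here, reads of the overlap cannot be assigned to either gene. Cldn15 lies further along chromosome 5, from 136966616 to 136975858, and Cldn2 lies on chromosome X from 139800828 to 139811386, both on the plus strand. The other members lie on chromosome 16 (Cldn1 from 26356642 to 26371841 and Cldn8 from 88560828 to 88563183 on the minus strand, Cldn5 from 18776847 to 18778262 on the plus strand), chromosome 11 (Cldn7, from 69964779 to 69967885, plus strand), chromosome 5 (Cldn12, from 5489537 to 5514958, minus strand) and chromosome 8 (Cldn23, from 35824712 to 35826559, minus strand). Each sequence is the 250 bases before the RefSeq transcription start on GRCm38.p6, read 5′ to 3′ on the gene's strand. Capitals mark a match on either strand to the GC box (GGGCGG), the TATA box (TATAAA), the Cdx-type motif (TTTATG), the TCF/LEF-type motif (CTTTGA) or the HNF1 half-site (GTTAAT). The Cldn4 window is chr5:134946935-134947184, that of Cldn3 chr5:134985964-134986213, that of Cldn2 chrX:139800558-139800807 and that of Cldn15 chr5:136967619-136967868. The Cldn15 window lies inside the gene positions given above, since the RefSeq start used is further along than the GENCODE start.
Cldn4: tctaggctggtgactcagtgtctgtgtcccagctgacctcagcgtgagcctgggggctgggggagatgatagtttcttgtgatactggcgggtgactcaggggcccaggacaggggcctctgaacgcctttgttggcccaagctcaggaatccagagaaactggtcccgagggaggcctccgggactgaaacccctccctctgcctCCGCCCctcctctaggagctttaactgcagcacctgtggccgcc
Cldn3: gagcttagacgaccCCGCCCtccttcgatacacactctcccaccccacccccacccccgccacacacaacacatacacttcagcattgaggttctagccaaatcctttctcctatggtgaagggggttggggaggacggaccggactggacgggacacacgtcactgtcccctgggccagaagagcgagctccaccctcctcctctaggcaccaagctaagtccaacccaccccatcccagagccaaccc
Cldn2: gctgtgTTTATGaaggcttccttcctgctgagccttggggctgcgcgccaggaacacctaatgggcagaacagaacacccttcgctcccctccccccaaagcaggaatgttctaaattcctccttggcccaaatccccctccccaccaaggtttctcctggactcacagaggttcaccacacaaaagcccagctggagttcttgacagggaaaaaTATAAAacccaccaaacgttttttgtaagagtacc
Cldn15: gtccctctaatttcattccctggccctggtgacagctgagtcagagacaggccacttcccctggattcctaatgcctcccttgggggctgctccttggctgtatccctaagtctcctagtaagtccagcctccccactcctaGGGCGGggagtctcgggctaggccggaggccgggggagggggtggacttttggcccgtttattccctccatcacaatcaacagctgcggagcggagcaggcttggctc

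The windows of Cldn4, Cldn3 and Cldn15 each held 1 GC box and none of the other 4 motifs. In Cldn4 it began 44 bases before the start, in Cldn3 236 bases and in Cldn15 108 bases. The Cldn2 window held no GC box. It had a TATA box from 35 to 30 bases before the start and a Cdx-type motif from 244 to 239 bases before it. Over all 32851 RefSeq windows of the same length, 32.7% held a GC box, 12.4% a TATA box, 10.8% a Cdx-type motif, 13.8% a TCF/LEF-type motif and 6.43% an HNF1 half-site. The motifs do not overlap one another in these windows, and a match describes letters, not a bound site. Promoter entries were matched for 8 of the 10 members, all but Cldn8 and Cldn23.

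Among the channel claudins, Cldn2, which conducts sodium, potassium and water between cells, stood at 62.4 RPKM in normal colon (60.8 to 64.1) and 18.3 in adenoma (17.4 to 19.1). Cldn15, the other intestinal sodium channel of the family, stood at 55.6 RPKM (53.6 to 57.6) and 19.4 (18.3 to 20.5). For both genes the adenoma level lay far below that of normal colon, with no overlap of the counting intervals. On the log2 scale with 1 RPKM added to each value, which is used for all thresholds here and understates the change of low genes, Cldn2 was at -1.72 and Cldn15 at -1.47. In the unadjusted levels their order swapped between the pools. Cldn2 was 1.12 times Cldn15 in normal colon and 0.942 times Cldn15 in adenoma, where the counting intervals of the 2 levels overlapped. After the length adjustment Cldn2 was at -1.64 and Cldn15 at -1.75, so Cldn2 was no longer the one that differed more. Summed, the pair made up 118 RPKM in normal colon and 37.6 in adenoma, 3.14-fold lower.

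Among the barrier claudins, Cldn4, which is also a receptor for the enterotoxin of Clostridium perfringens, stood at 6.72 RPKM in normal colon (6.05 to 7.45) and 114 in adenoma (111 to 117), a log2 value of 3.90. Among 16517 genes that reached 1 RPKM in one pool or the other, 59 had a higher log2 value. Cldn3, a second receptor for the same toxin, stood at 292 RPKM (287 to 298) and 246 (241 to 251), a log2 value of -0.25. The neighbouring genes thus showed unlike differences. Cldn3 was 43.5 times Cldn4 in normal colon and 2.16 times Cldn4 in adenoma, a comparison within each library that no scaling between libraries affects. The claudin gene on the other side of Cldn4, Cldn13, 29592 bases away, stood at 0.253 RPKM in normal colon and was listed at 0 in adenoma, where 3 reads would give 0.0848 RPKM.

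Cldn8, a sodium barrier of the distal colon that interacts with Cldn4 in kidney epithelium, stood at 27.5 RPKM (26.3 to 28.8) in normal colon and 13.2 (12.4 to 14.0) in adenoma, 2.09-fold lower (1.94 to 2.26). Cldn8 was 4.09 times Cldn4 in normal colon, whereas in adenoma Cldn4 was 8.67 times Cldn8. Cldn1, a barrier claudin best known from the epidermis, was low in both pools, at 0.668 RPKM (0.515 to 0.853) and 0.223 (0.143 to 0.332). It was the 1 member of the 10 that did not reach 1 RPKM in either pool. Its ratio, 2.99-fold lower in adenoma (1.85 to 5.004), rests on about 64.1 and 24.0 estimated reads.

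Cldn7, whose product binds the adhesion molecule EpCAM, was the most abundant claudin in both pools, at 439 RPKM in normal colon (433 to 446) and 428 in adenoma (421 to 434). Its log2 value of -0.04 was the smallest in size of the 10 members, and it turned slightly positive under 2 scalings, at 0.03 with the upper quartile and 0.01 with a trimmed mean of log ratios. Cldn23, a claudin of differentiated surface colonocytes, was at 10.8 RPKM (9.90 to 11.7) and 8.52 (7.80 to 9.28), 1.26-fold lower (1.12 to 1.42). Cldn12, which has been linked to calcium passage between cells, was at 13.6 RPKM (12.9 to 14.3) and 6.12 (5.69 to 6.57), 2.22-fold lower (2.04 to 2.43). Before the length adjustment Cldn7 thus differed less than Cldn23, and Cldn12 by about as much as Cldn8. After it Cldn7 was at -0.65 and Cldn23 at -0.61.

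Cldn5, the main claudin of endothelium, was at 4.66 RPKM in normal colon (4.03 to 5.36) and 10.03 in adenoma (9.14 to 10.97), 2.15-fold higher (1.82 to 2.56). Of 14 endothelial marker genes, 2 were higher and 1 lower by 2-fold or more, beside 14% and 11% of all genes. The median log2 value of the 14 was -0.68, beside -0.02 over all genes. With the pools rescaled to equal sums, 1 was higher and 6 were lower, beside 7.47% and 19.5%, and the log2 value of Cldn5 was 0.61. After the length adjustment 1 was higher and 1 lower, beside 5.13% and 11%, and Cldn5 was at 0.41. The median of the 14 was then -0.31, beside -0.19 over all genes. The summed level of the 14 markers was 123 RPKM in normal colon and 88.2 in adenoma. The most abundant of them, the endothelial diaphragm protein gene Plvap, was at 41.9 and 20.6 RPKM. The transcription factor gene Sox17, at 0.605 and 3.58 RPKM, had the largest log2 value of the list. None of the 14 was at 0 in either pool. The part of the endothelial cell content in the Cldn5 difference was not tested.

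**Figure D1:**
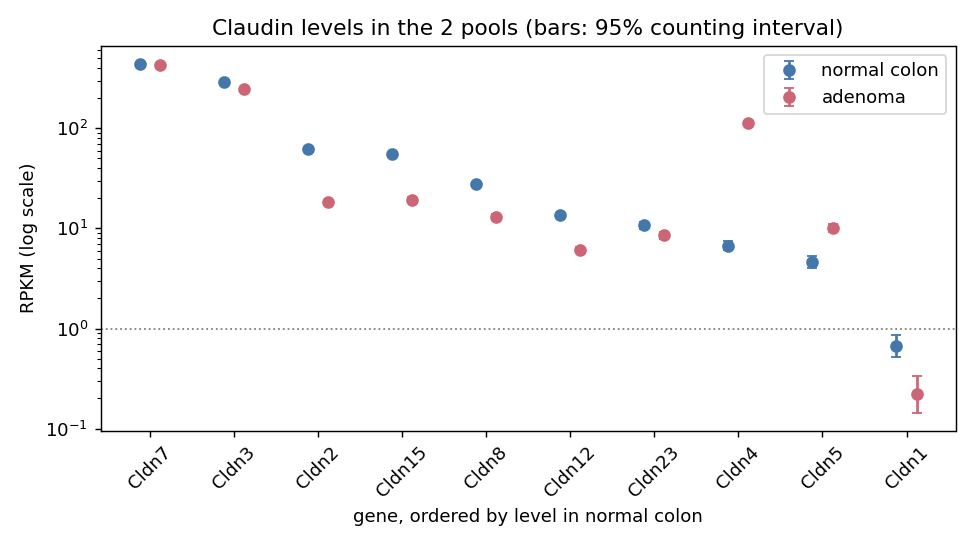
Level of each of the 10 claudins in RPKM, on a log axis, in normal colon and adenoma, 1 library each; bars are 95% counting intervals and the dotted line marks 1 RPKM. Cldn4 lies at 6.72 RPKM in normal colon and 114 in adenoma, whereas Cldn7 and Cldn3 lie nearly level between the pools and Cldn2 and Cldn15 lie lower in adenoma.

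All members but Cldn1 were above 1 RPKM in both pools. By count, 1 of the 9 members at 1 RPKM or more in at least one pool (Cldn4) was at least 2-fold higher in adenoma, and 4 (Cldn2, Cldn15, Cldn12 and Cldn8) were at least 2-fold lower. Over all 16517 genes past the same filter, 14% were higher and 11% lower by this rule, so the count of higher members was near the background and the count of lower members above it. The median log2 value of the 9 members was -0.30 and that of all 10 was -0.38, beside -0.02 over all genes and -0.17 over mRNA genes. Cldn12, Cldn8 and Cldn5 lay close to the threshold, at -1.04, -1.01 and 0.96. With the median ratio as the scale Cldn8 was at -0.99, which left 3 members lower. With the upper quartile or the trimmed mean of log ratios as the scale, 2 members were higher (Cldn4 and Cldn5) and 2 lower (Cldn2 and Cldn15). At a 4-fold threshold only Cldn4 of the 9 was past it, where 2.02% of all genes were higher and 1.08% lower.

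**Figure D2:**
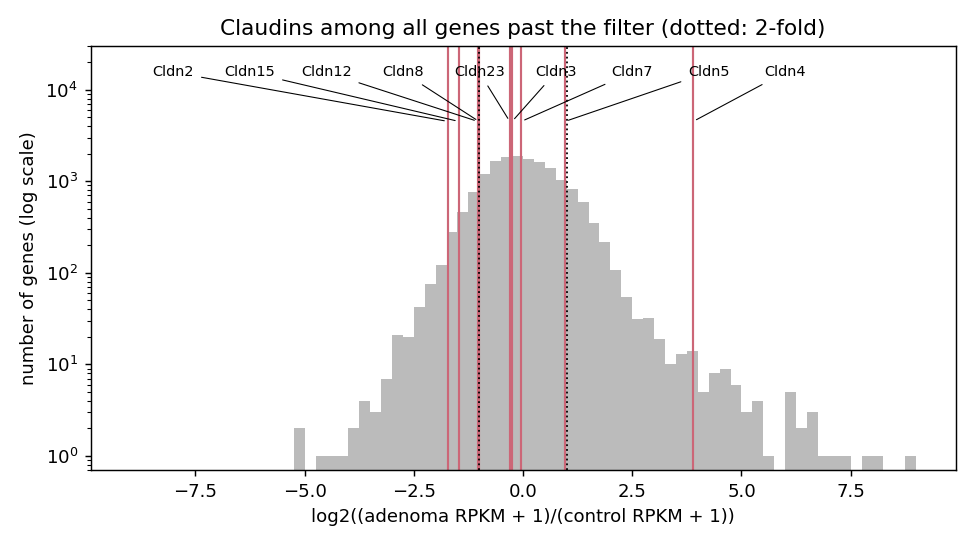
Number of genes (log axis) by log2 fold change among the 16517 genes past the filter of 1 RPKM; red lines mark the 9 claudins past this filter and dotted lines mark 2-fold. Cldn4 stands far out in the right tail at 3.90, and Cldn2 (-1.72) and Cldn15 (-1.47) in the left shoulder, while Cldn3, Cldn7 and Cldn23 lie in the bulk.

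Transcript length went with the fold change over all genes: the median log2 value was 0.85 in the shortest 10% of mRNA transcripts and -0.78 in the longest 10%. The members' transcripts are 1259 to 3752 bases long. After the trend with transcript length was subtracted, Cldn4 was at 3.57, Cldn5 at 0.41, Cldn7 at -0.65, Cldn3 at -0.91, Cldn8 at -1.11, Cldn2 at -1.64 and Cldn15 at -1.75 on the log2 scale. All of these but Cldn2 thus moved down from their unadjusted values. Cldn12 was at -0.82 and no longer past 2-fold, which left 1 member higher and 3 lower, beside 5.13% and 11% of all genes with a length. With the pools rescaled to equal sums of RPKM, a step that moved the median of all genes by -0.32, 1 member was higher and 4 were lower, beside 7.47% and 19.5% of all genes. Relative to that shifted median, Cldn7 stood at -0.09, Cldn3 at -0.30, Cldn2 at -1.75 and Cldn4 at 3.84, against -0.02, -0.23, -1.70 and 3.92 before rescaling. Cldn4 stayed past 2-fold higher, and Cldn2 and Cldn15 past 2-fold lower, under each of the 9 settings of pseudocount, filter, scaling and length that were tried.

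**Figure D3:**
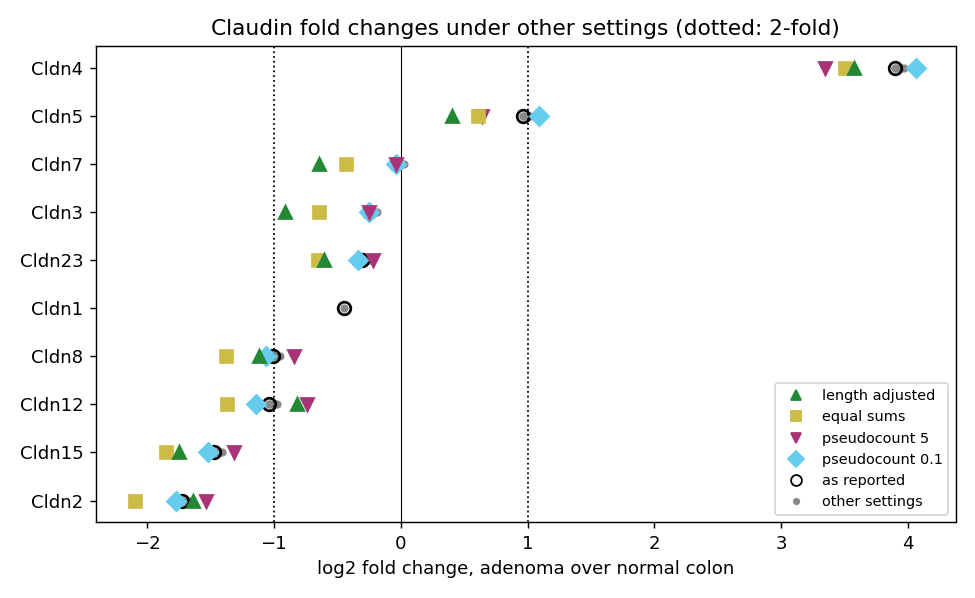
Log2 fold change of each claudin (adenoma over normal colon) under the reported setting (open circles) and under other pseudocounts, filters, scalings and the length adjustment; dotted lines mark 2-fold. Cldn4, Cldn2 and Cldn15 stay outside the dotted lines throughout, Cldn8, Cldn12 and Cldn5 cross them, and Cldn1 has few points because it passes the filter only when none is applied.

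The make-up of claudin RNA, which no scaling between the libraries affects, differed between the pools. Over 26 rows named Cldn and a number, the levels summed to 917 RPKM in normal colon and 870 in adenoma. Their ratio, 0.949, does depend on that scaling, unlike the shares below. Cldn7 held 47.9% of that sum in normal colon and 49.1% in adenoma, and Cldn3 31.9% and 28.3%. Together these 2 genes held 79.8% and 77.4%, so most claudin RNA came from the same pair in both libraries. The share of Cldn4 was 0.733% in normal colon and 13.1% in adenoma, where it came next after Cldn7 and Cldn3. The channel claudins Cldn2 and Cldn15 together held 12.9% in normal colon and 4.33% in adenoma. Cldn2 was 9.29 times Cldn4 in normal colon, and Cldn4 was 6.25 times Cldn2 in adenoma. The 5 members Cldn1, Cldn3, Cldn4, Cldn5 and Cldn8, which are usually counted as barrier claudins, held 36.2% and 44.1%. RPKM is a level per length, so these shares compare transcripts rather than reads. Neither the sums nor the shares carry the length adjustment, after which Cldn7 and Cldn3 were at log2 values of -0.65 and -0.91.

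**Figure D4:**
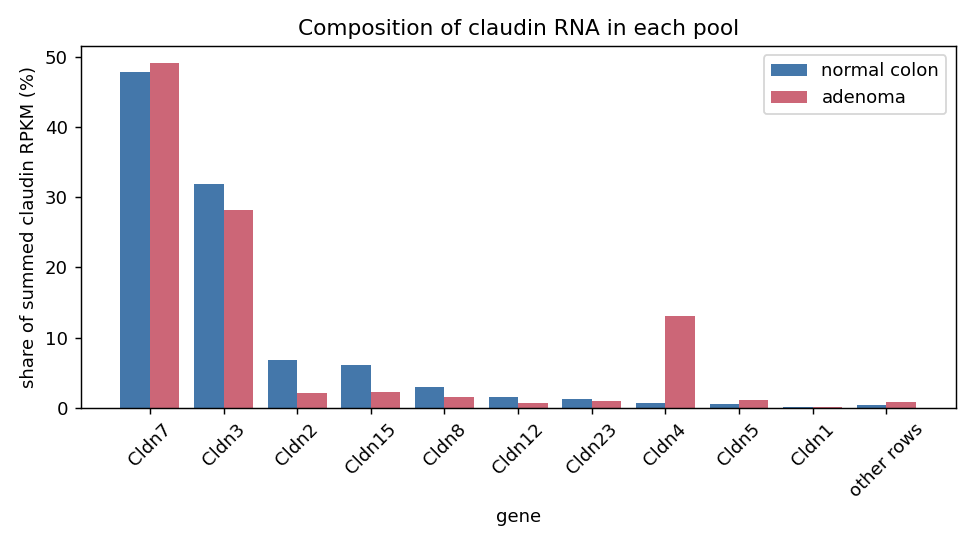
Share of summed claudin RPKM (percent, axis from 0) held by each of the 10 members and by all other rows named Cldn and a number except Cldn25, in normal colon and adenoma. Cldn7 and Cldn3 dominate both pools, Cldn4 holds 0.733% in normal colon and 13.1% in adenoma, and Cldn2 and Cldn15 hold 6.81% and 6.06% in normal colon and 2.10% and 2.23% in adenoma.

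In the order of levels, normal colon ran Cldn7, Cldn3, Cldn2, Cldn15, Cldn8, Cldn12, Cldn23, Cldn4, Cldn5 and Cldn1. Adenoma ran Cldn7, Cldn3, Cldn4, Cldn15, Cldn2, Cldn8, Cldn5, Cldn23, Cldn12 and Cldn1. Apart from Cldn2 and Cldn15, the counting intervals of Cldn5 and Cldn23 also overlapped in adenoma, and all other neighbours in these orders were separated by more than counting error. Among all genes of the table, Cldn7 was the 178th most abundant in normal colon and Cldn4 the 8574th, and in adenoma they were the 339th and the 1129th.

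With 1 RPKM added to each value, no other tight junction gene of the list used here had a log2 value as large in size as that of Cldn2. Without it, Wnk4 was 3.44-fold lower beside 3.42-fold for Cldn2. Of 39 such genes, 37 reached 1 RPKM in either pool, and 11 were lower by 2-fold or more and 0 higher by as much, beside 11% and 14% of all genes. Their median log2 value was -0.57. On the scale with 1 RPKM added, the largest differences were those of the cytoplasmic plaque protein cingulin (Cgn), at 27.1 and 8.68 RPKM, Ildr1, a protein of tricellular contacts, at 44.5 and 16.4, the kinase Wnk4, which phosphorylates claudins, at 5.86 and 1.70, and the membrane scaffolds Magi3, at 10.7 and 3.66, and Magi1, at 5.70 and 1.69. By the ratio alone the order was Wnk4, Magi1, Mpdz and Cgn, of which the scaffold Mpdz, at 1.72 and 0.525 RPKM, was not past 2-fold on the log2 scale. The other 6, named after their values were seen, were Arhgef18, Pard6b, Mylk, which is also abundant in smooth muscle, Prkci, Tjp1 and Ocln. Tjp1 encodes ZO-1 and stood at 11.8 and 5.05 RPKM, and the strand protein occludin (Ocln) at 22.4 and 10.1.

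Many of these partners have long transcripts, and after the length adjustment 4 were lower by that much (Cgn, Ildr1, Wnk4 and Pard6b), 0 genes were higher, and the median was -0.34 beside -0.19 over all genes. By that rule 11% of all genes with a length were lower and 5.13% higher, so the 4 of 37 were near the background share. Tjp1 was then at -0.49 and Ocln at -0.80. The most abundant members of the list were Epcam, the partner of Cldn7, at 752 and 646 RPKM, Csda, now called Ybx3, at 140 and 131, and the tricellular receptor Lsr at 96.7 and 121. Epcam and Cldn7 were thus both close to their levels in normal colon, at log2 values of -0.22 and -0.04, and at -0.44 and -0.65 after the length adjustment.

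**Figure D5:**
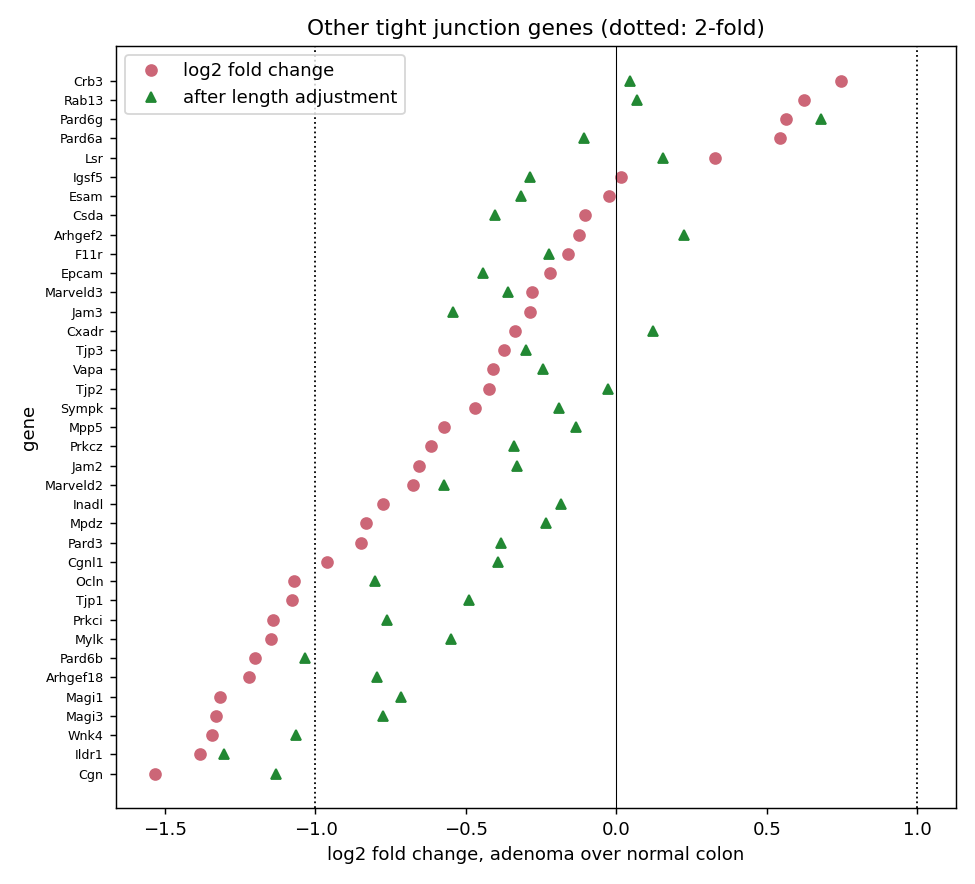
Log2 fold change (adenoma over normal colon) of the 37 other tight junction genes past 1 RPKM, before (circles) and after (triangles) the adjustment for transcript length; dotted lines mark 2-fold. The lowest is Cgn at -1.53, 11 circles and 4 triangles lie past 2-fold lower, and none lies past 2-fold higher.

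Markers of the cell types in the pools also differed. Of 10 colon epithelial markers, all above 0 in both pools, 5 were lower and 0 higher by 2-fold or more, beside 11% and 14% of all genes, and their summed level was 9731 RPKM in normal colon and 6282 in adenoma. The intestinal transcription factor gene Cdx2 was at 30.1 and 7.43 RPKM, and the keratin gene Krt8 at 4237 and 2514. With Krt19, at 3245 and 1950, Krt8 held most of that sum. Before the length adjustment Krt18, at 327 and 483, and Tspan8, at 222 and 278, were higher by less than 2-fold. Summed fibroblast and smooth muscle markers were at 2022 and 1807 RPKM. Of these 11 genes 0 were higher and 1 lower by 2-fold or more, beside the same 14% and 11%. The lower one was Myh11, at 178 and 61.0 RPKM, and the most abundant was Tagln, at 558 and 597. The 9 leukocyte markers summed to 176 and 253 RPKM. The higher leukocyte sum came from 1 gene, the neutrophil protein gene S100a8, at 0.777 and 120.5 RPKM. Without it, a step chosen after its values were seen, the other 8 summed to 175.5 and 133, and the median log2 value of all 9 was -0.43. Ly6g, the most abundant of the 9 in normal colon, was lower in adenoma, at 112.5 and 83.2 RPKM. Of 8 squamous markers, 3 reached 1 RPKM in either pool, Krt14 at 2.02 and 19.0, Krt13 at 1.06 and 6.87, and Krt4, which reached it in adenoma alone, at 0.0159 and 1.24. Trp63 and Sprr1b were listed at 0 in both pools and Dsg3 in normal colon, and the sum was 3.20 and 27.4. Paneth cell markers summed to 215 and 1156 RPKM, with 5 of 6 higher and 1 lower by 2-fold or more, beside the same 14% and 11%. The lower gene, Ang4, at 174 and 59.9 RPKM, held most of the sum in normal colon. Lyz1, at 37.8 and 337 RPKM, was the most abundant of the 6 in adenoma. Defa24 and Defa3, among the 5 higher genes, were listed at 0 in normal colon and so reached 1 RPKM through adenoma alone, as did Mmp7. Whether such shifts in cell content take part in the claudin differences was not tested.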

How the data were processed

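RNA pooled from 6 individuals per group was sequenced as 1 library per group. The authors deposited 1 table of RPKM values with 1 column per pool, per the file headers. Per the submitters' processing notes the build was GRCh37, a human assembly, although the symbols are those of mouse; the sources used here do not state the aligner, counter, annotation or use of strand.

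Read totals were recovered from RPKM and RefSeq lengths of short RNA genes, with the most common product of RPKM and length taken as 1 read. With these totals, 131 of 198 such genes in normal colon and 146 of 216 in adenoma came within 0.01 of a whole read. Genes at that most common product did so by construction. Reads per gene used the longest coding GENCODE M21 transcript (longest transcript where none codes), found for 93.8% of the 16517 genes that reached 1 RPKM in a pool, and are approximate. Fold changes were log2((adenoma + 1)/(control + 1)), with 2-fold as threshold; ratios in the text carry no pseudocount. With 1 library per group no test was made. The length adjustment subtracted the median over 20 bins of transcript length among mRNA genes and added back their overall median. Of the rows named Cldn and a number, Cldn25 was left out of sums because 2 current genes carry that older name. Alternatives were 2 pseudocounts, 2 filters, 4 scalings, the length adjustment and 2 thresholds. Members and lists were chosen with earlier results of these data known. Named were all members, other Cldn rows past 1 RPKM, and in each list the most abundant genes and those of largest change. The steps were checked on simulated libraries. Python 3.11.15, pandas 2.3.3, numpy 2.4.6, scipy 1.17.1 and matplotlib 3.10.9 were used.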

Additional observations from a re-analysis of the deposited data

How the results depend on the processing

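No paired analysis was possible because each group is 1 pooled library, and for the same reason no replicate could be left out. The number of claudins at least 2-fold higher was 2 in place of 1 with a pseudocount of 0.1, with the upper quartile, with the trimmed mean of log ratios and at a 1.5-fold threshold. The number at least 2-fold lower was 2 in place of 4 with a pseudocount of 5, with the upper quartile and with the trimmed mean, 0 at a 4-fold threshold, and 3 with the median ratio and after length adjustment. The median of the claudins was -0.65 with equal sums and -0.82 after length adjustment, in place of -0.30. The median of all genes moved as well, to -0.34 and -0.19 in place of -0.02. Of the tight junction list, 11 lower genes became 2 with a pseudocount of 5, 4 after length adjustment, 18 at 1.5-fold and 0 at 4-fold, and 0 higher genes became 2 at 1.5-fold. A larger pseudocount shrinks differences of low genes by construction. No claudin past 2-fold changed sign under any of the 9 settings without a change of threshold; Cldn7, which was not past it, did under 2. Among the 10 members depth limits the statements on Cldn1 most, with about 64.1 and 24.0 estimated reads. Of the rows outside the 10 that are named here, Cldn6, Cldn9, Cldn10, Cldn13 and Cldn18 had fewer in at least 1 pool. Cldn6 had 0 in normal colon. Differences between animals cannot be estimated from these pools.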

Other observations

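The table holds 17 further rows named Cldn and a number, of which 3 reached 1 RPKM in either pool. Cldn6, a claudin of embryonic epithelia, was listed at 0 in normal colon, with 3 reads worth 0.0626 RPKM there, and stood at 3.74 RPKM in adenoma, at least 59.8-fold higher against that floor of 3 reads in the library. Its neighbour Cldn9, 137 bases away on chromosome 17 on the opposite strand, was at 0.0235 and 0.104 RPKM, about 1 and 5 reads. Cldn14, known from the inner ear and kidney, was at 2.39 RPKM in normal colon and 2.01 in adenoma, 1.19-fold lower (0.895 to 1.59), an interval that includes no difference. The row Cldn25 was at 12.4 and 10.7 RPKM, and its symbol is an older name of both Cldnd1 and Cldn25-ps, so its gene cannot be told from the name.

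Of the 14 rows that stayed under 1 RPKM, 5 were listed at 0 in both pools. Among the others, chosen after their values were seen, Cldn18, the claudin of stomach and lung, was listed at 0 in normal colon and stood at 0.169 RPKM in adenoma, about 23.4 reads and at least 6.96-fold above the floor of 3 reads. Cldn10, which has isoforms that act as cation or anion channels, was at 0.371 and 0.712 RPKM, 1.92-fold higher (1.15 to 3.28).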
